A study of Medicago truncatula with 6 samples.

Results

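In mock-treated Medicago truncatula roots, 2619 distal promoters carried small RNAs while the promoter next to the gene and the gene itself were nearly empty. The deposited tables count reads over annotated intervals, among them a 3 kb promoter, a 1 kb promoter and the gene body for each nuclear gene. A distal promoter is here a 3 kb promoter with a mean of at least 5 CPM over the 3 GUS RNAi libraries whose 1 kb promoter and gene both had a mean under 1 CPM. CPM is the count scaled to a library total of 1e6 counts. The 2619 distal promoters were 5.14% of the 50905 nuclear 3 kb promoters and 44.5% of the 5888 that reached 5 CPM, out of 400216 features in all. Each is named below by the ID of its gene. The GUS RNAi levels chose these promoters, so their high distal and low proximal levels there are descriptions, and the SKI3 RNAi libraries are the ones the choice did not use.

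Both groups were roots of a wild-type (WT) genotype that had received the mock treatment, and each had 3 libraries. The control group carried RNAi against GUS, a bacterial reporter gene that plants lack. The other group carried RNAi against SKI3, a subunit of the Superkiller complex, and the study concerns that gene in root nodule formation. The promoter that drives the RNAi, the number of transformed lines and the number of plants pooled per library are not given in the sources used here, so p-values measure the spread between these libraries, which may be technical. Total counts were 3974092, 2168297 and 3486290 in GUS RNAi replicates 1, 2 and 3, and 2851473, 2324061 and 2612141 in SKI3 RNAi replicates 1, 2 and 3. A level of 3 counts lay between 0.755 and 1.38 CPM, depending on the library, close to the limit of 1 CPM that defines a quiet gene or 1 kb promoter. The IDs come without gene names, so neither the knockdown of SKI3 nor root markers were checked.

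Plant small RNAs are cut from double-stranded RNA by Dicer-like enzymes and loaded into Argonaute proteins. Those of the shorter size classes mostly guide the cleavage or translational repression of transcripts. The longest class directs DNA methylation, often at transposable elements, which are common in the sequence between plant genes. The Superkiller complex is a cofactor of the cytoplasmic exosome, which degrades RNA from its 3′ end, and in Arabidopsis it is known to limit the production of secondary small RNAs from cleaved transcripts. A stray header in the SKI3 RNAi replicate 3 table names 21 to 22 nt reads, and read lengths are not given for the other libraries.

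Most of the distal promoters were only modestly covered. In GUS RNAi roots their mean level had quartiles of 6.20, 8.36 and 12.8 CPM, and 1623 of them, or 62.0%, lay between 5 and 10 CPM. There were 996 at 10 CPM or more, 300 at 20 or more, 40 at 50 or more and 6 at 100 or more. Their 1 kb promoters had a median of 0.191 CPM and their genes a median of 0.0956 CPM. All GUS RNAi libraries had 0 counts in the 1 kb promoter of 698 and in the gene of 1116. For 172 distal promoters, the 1 kb promoter and the gene both had 0 counts in all 6 libraries. The coefficient of variation between replicates had a median of 19.1% in GUS RNAi and 21.6% in SKI3 RNAi roots, against 19.3% and 21.4% for the 3269 other 3 kb promoters from 5 CPM.

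The lower threshold cut through a continuous range of levels. Just inside it were MtrunA17Chr5g0413101 and MtrunA17Chr1g0179201, and just outside were MtrunA17Chr5g0429221 and MtrunA17Chr4g0071651, both at 4.99 CPM. Another 724 promoters met the other limits with 4 to 5 CPM. MtrunA17Chr5g0413101 held 18, 14 and 14 counts in GUS RNAi libraries and 16, 14 and 13 in SKI3 RNAi libraries. MtrunA17Chr1g0179201 held 13, 13 and 20 counts in GUS RNAi libraries and 9, 13 and 7 in SKI3 RNAi libraries. At such counts, a difference of a few reads moves a promoter in or out of the list.

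The distal promoters lay on every chromosome in similar proportion. They were 4.49% of the 3 kb promoters of chromosome 4, the lowest share, and 5.48% of those of chromosome 1, the highest share among the 8 chromosomes. On unplaced sequence they were 13 of 212, or 6.13%.

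A single distal promoter held most of the counts. The promoter of MtrunA17Chr3g0086791 on chromosome 3 contributed 65.2% of all counts in the list, and the 10 most counted contributed 68.0%. It held 71516, 49963 and 93589 CPM in GUS RNAi replicates 1 to 3, and 48427, 34693 and 65264 CPM in SKI3 RNAi replicates 1 to 3. In GUS RNAi its gene had 0 counts in every library and its 1 kb promoter had 2, 1 and 1 counts. The mean was 71689 ± 21813 CPM in GUS RNAi and 49461 ± 15312 CPM in SKI3 RNAi roots (SD, n = 3 each), and the groups overlapped. Its log2 fold change in the edgeR quasi-likelihood test was -0.63 (SE 0.346, adjusted p = 0.829). With no filter on low counts it passed, at an edgeR adjusted p of 0.0131. Its own counts were the same in both fits, and why the results differed was not tested.

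That promoter made up most of the share of each library that fell in the list in most libraries. Distal promoters took 10.5, 8.54 and 12.4% of the counts in the GUS RNAi libraries and 8.42, 7.02 and 9.91% in the SKI3 RNAi libraries. Without MtrunA17Chr3g0086791 the shares were 3.37, 3.54 and 3.09% for GUS RNAi against 3.58, 3.55 and 3.39% for SKI3 RNAi. The summed level was 105011 ± 19539 CPM in GUS RNAi and 84517 ± 14483 CPM in SKI3 RNAi roots (SD, n = 3 each). Without the 10 most counted promoters it was 30517 ± 1744 CPM in GUS RNAi and 32306 ± 978 CPM in SKI3 RNAi roots, so the sign of the difference turned. With MtrunA17Chr3g0086791 also left out of the library totals, the summed level of all the others was 35870 ± 1646 CPM in GUS RNAi and 36877 ± 699 CPM in SKI3 RNAi roots, with overlapping libraries.

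**Figure D1:**
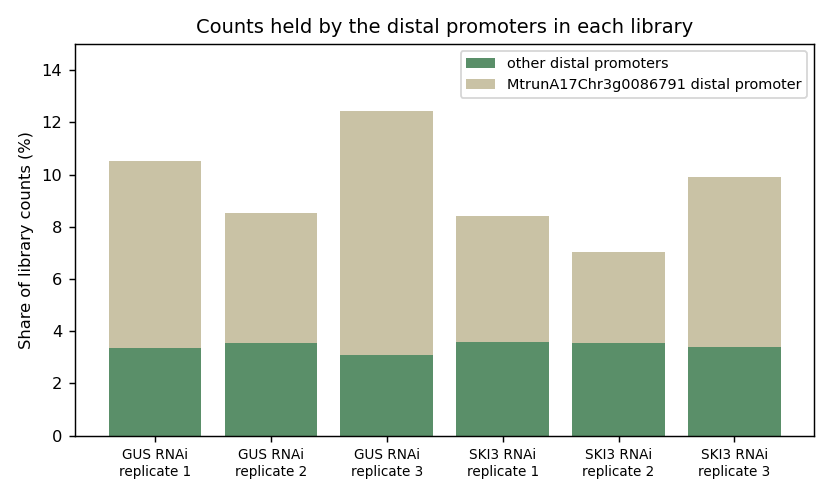
Share of each library's counts (%) in distal promoters, 1 bar per library, split into the MtrunA17Chr3g0086791 promoter and all others. The first part ran from 3.47% to 9.36% of a library and the second only from 3.09% to 3.58%.

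Behind it came 3 promoters with means of 493 to 978 CPM. MtrunA17Chr3g0107951, also on chromosome 3, held 726, 1569 and 639 CPM in GUS RNAi and 599, 457 and 553 CPM in SKI3 RNAi libraries. Every SKI3 RNAi value was below every GUS RNAi value, and GUS RNAi replicate 2 stood above the rest. The means were 978 ± 513 and 537 ± 72.4 CPM (SD, n = 3 each), and the log2 fold change of -0.93 (SE 0.296) did not pass the edgeR test, with an adjusted p of 0.743. With no filter on low counts it passed, with an adjusted p of 0.0016.

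MtrunA17Chr1g0166591 on chromosome 1 held 784, 660 and 546 CPM in GUS RNAi and 727, 1073 and 807 CPM in SKI3 RNAi libraries. MtrunA17Chr5g0441201 on chromosome 5 held 387, 556 and 536 CPM in GUS RNAi and 777, 700 and 500 CPM in SKI3 RNAi libraries. For both, the SKI3 RNAi mean was higher and the groups overlapped. Their log2 fold changes were 0.29 (SE 0.202) and 0.32 (SE 0.209), with adjusted p-values of 0.853 and 0.846 in the edgeR test.

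MtrunA17Chr3g0136651 on chromosome 3 was the least even of the 10 highest. It held 1770 counts, or 445 CPM, in GUS RNAi replicate 1, but 110 and 35 counts in replicates 2 and 3, and 35, 272 and 14 counts in the SKI3 RNAi libraries. GUS RNAi replicate 1 held most of its counts. Its log2 fold change of -2.08 (SE 1.21, edgeR adjusted p = 0.833) became 0.47 without that library. With no filter on low counts the promoter passed, at an edgeR adjusted p of 9.58e-17, in a fit that held that library.

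The remaining 5 of the 10 highest had GUS RNAi means of 91.0 to 137 CPM. MtrunA17Chr5g0438931 held 104, 184 and 124 CPM in GUS RNAi and 211, 169 and 116 CPM in SKI3 RNAi libraries, with overlap. MtrunA17Chr5g0447661 held 130, 67.8 and 97.2 CPM in GUS RNAi and 132, 70.6 and 218 CPM in SKI3 RNAi libraries, and MtrunA17Chr2g0309321 on another chromosome had nearly the same profile, with 123, 58.6 and 91.8 CPM in GUS RNAi and 123, 65.0 and 210 CPM in SKI3 RNAi libraries. In both, SKI3 RNAi replicate 3 was the highest library and the second replicates of both groups the lowest. MtrunA17Chr6g0456171 held 109, 109 and 67.7 CPM in GUS RNAi and 84.9, 79.6 and 62.8 CPM in SKI3 RNAi libraries. MtrunA17Chr2g0306171 held 104, 90.9 and 87.2 CPM in GUS RNAi and 101, 59.4 and 91.5 CPM in SKI3 RNAi libraries. The groups of all 5 overlapped and their log2 fold changes lay between -0.42 and 0.46.

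**Figure D2:**
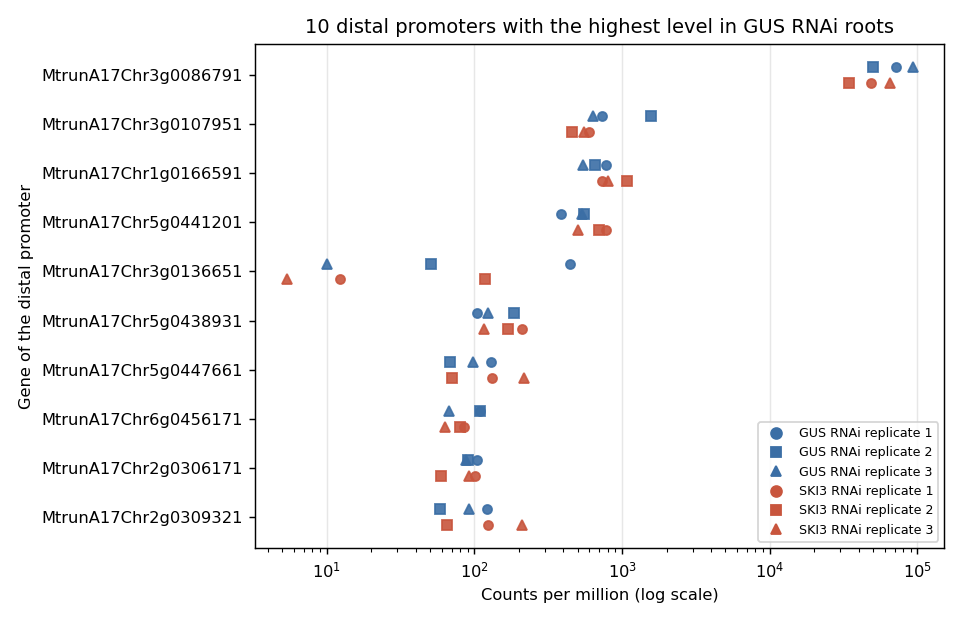
CPM per library on a log scale for the 10 distal promoters with the highest GUS RNAi mean, 1 row per gene, with points for single libraries and the group marked by colour. The groups overlapped in 9 of the 10, and MtrunA17Chr3g0136651 spread most, from 5.36 to 445 CPM.

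Other annotated features near a distal promoter often held at least 50% as many counts, with no upper limit set. Beside MtrunA17Chr5g0413101, for example, a repeat region held 1972% of its counts. Neighbours were read from the row order of the tables, since no coordinates come with promoters or genes. Transposable element fragments are numbered along each chromosome, and the number rose in all 220318 consecutive pairs of fragments. The order of promoter and gene rows could not be checked in this way. Within 10 rows on either side, 2167 of the distal promoters, or 82.7%, had a neighbour with at least 50% of their counts, and 452, or 17.3%, had none. The other 3 kb promoters from 5 CPM were similar, with 18.7% having none. A transposable element fragment was such a neighbour for 61.7% of the distal promoters and a gene for 18.7%. For the other 3 kb promoters from 5 CPM these shares were 62.3% and 19.2%. The tables do not say whether a read in 2 overlapping features was counted in both. Some neighbours held the same counts in all 6 libraries, as described below, so neighbours are not taken as separate measurements.

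A closer match, in which every library matched a neighbour within 10% or 3 counts, was found for 220 distal promoters, or 8.40%, against 6.58% of the other 3 kb promoters from 5 CPM. The neighbour was a transposable element fragment for 117, another 3 kb promoter for 62, a gene for 53, a repeat region for 4 and a 1 kb promoter for 0, and a promoter could match more than 1 kind. By the element codes in the IDs, 44 matched DTX and 9 matched DTT terminal inverted repeat elements, 32 matched DHH helitrons, and 15 RLG, 9 RLC and 5 RLX retrotransposons. Terminal inverted repeat elements and helitrons are DNA transposons, and the codes starting with RL are long terminal repeat or related retrotransposons.

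The 10 highest fell into both kinds. MtrunA17Chr1g0166591 matched the neighbouring gene MtrunA17Chr1g0166581, which held 3173, 1479 and 1956 counts in GUS RNAi libraries and 2143, 2534 and 2175 in SKI3 RNAi libraries, where the promoter held 3114, 1430 and 1903, and 2074, 2494 and 2109. A further gene beside it, MtrunA17Chr1g1001292, held 92.3% of its counts in total. MtrunA17Chr3g0136651 lay beside the gene MtrunA17Chr3g0136661, which held 1779, 116 and 43 counts in GUS RNAi libraries and 41, 276 and 19 in SKI3 RNAi libraries, where the promoter held 1770, 110 and 35, and 35, 272 and 14. MtrunA17Chr6g0456171 and MtrunA17Chr2g0306171 also had a neighbouring gene with 71.8% and 168% of their counts. Beside MtrunA17Chr2g0306171, a repeat region also held 80.7% and a retrotransposon fragment 140% of its counts. These promoters are distal to a quiet gene but close, in row order, to a gene whose own body held 71.8% to 168% of their counts.

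The other 6 of the highest 10 stood alone. The neighbour with the most counts held 0.0180% of the counts of MtrunA17Chr3g0086791, 0.817% of MtrunA17Chr3g0107951, 0.809% of MtrunA17Chr5g0441201, 5.58% of MtrunA17Chr5g0438931, 5.77% of MtrunA17Chr5g0447661 and 1.96% of MtrunA17Chr2g0309321. Among the 30 highest, 24 had no neighbour with 50% of their counts. Those without such a neighbour had a median of 12.3 CPM in GUS RNAi roots and those with one 7.84 CPM, a comparison that the level of the promoter itself enters on both sides.

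**Figure D3:**
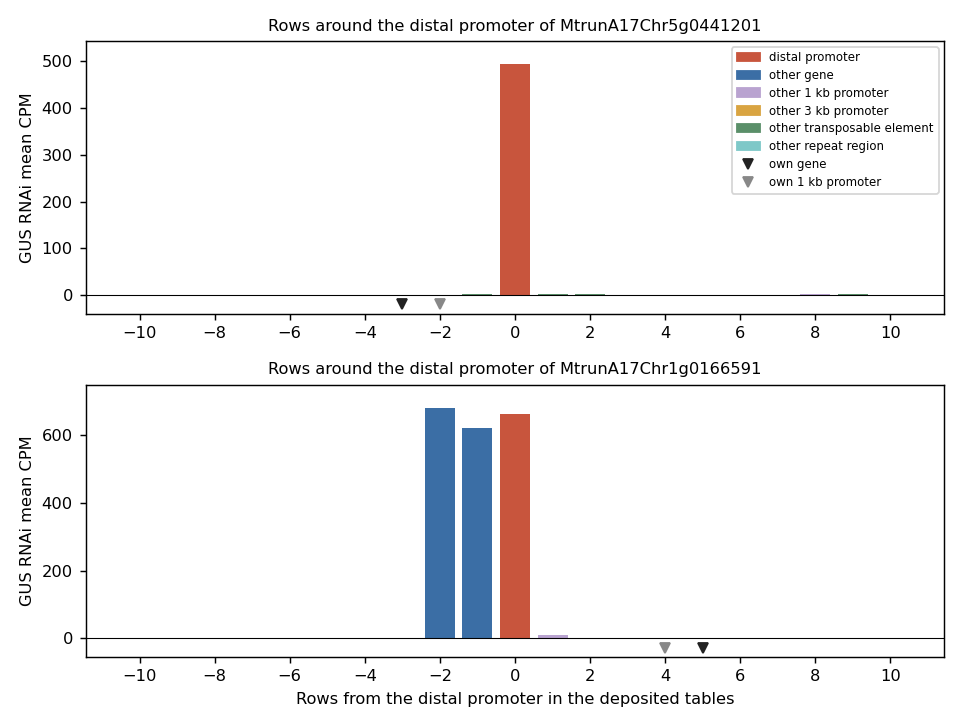
GUS RNAi mean CPM of the 10 rows before and after 2 distal promoters in the deposited tables, coloured by kind of feature, with the promoter's own gene and 1 kb promoter marked. MtrunA17Chr5g0441201 stood alone at 493 CPM, while MtrunA17Chr1g0166591 at 663 CPM had 2 genes of similar level beside it.

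Some distal promoters had exactly the same counts in all 6 libraries. There were 10 such groups with 20 promoters in all, and 58 promoters had some other feature with identical counts. MtrunA17Chr7g0255861 and MtrunA17Chr7g0255871 both held 218, 91 and 262 counts in GUS RNAi libraries and 206, 143 and 165 in SKI3 RNAi libraries, as did the gene MtrunA17Chr7g0255851. MtrunA17Chr5g0418231 and MtrunA17Chr5g0418251 both held 179, 105 and 133 counts in GUS RNAi libraries and 71, 50 and 115 in SKI3 RNAi libraries. MtrunA17Chr5g0435931 and MtrunA17Chr5g0435941 both held 50, 115 and 56 counts in GUS RNAi libraries and 57, 93 and 52 in SKI3 RNAi libraries, with the second replicate highest in each group. MtrunA17Chr2g0278641 and MtrunA17Chr3g0092001 had partners of this kind as well, at lower counts. Such pairs list the same 6 values under 2 genes and are not separate measurements.

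Identity also crossed chromosomes. MtrunA17Chr4g0016441 on chromosome 4 and MtrunA17Chr7g0229311 on chromosome 7 both held 64, 31 and 47 counts in GUS RNAi libraries and 30, 28 and 51 in SKI3 RNAi libraries. MtrunA17Chr4g0016451 and MtrunA17Chr7g0229301 both held the same counts except 27 in SKI3 RNAi replicate 2. How the authors counted reads that align in several places is not given in the sources used here.

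The distal pattern was mostly found again in SKI3 RNAi roots. Of the 2619 promoters, 2423, or 92.5%, also had a mean of at least 5 CPM there, 2358 had a 1 kb promoter under 1 CPM and 2445 had a gene under 1 CPM. All 3 limits were met by 2041, or 77.9%. The 578 that missed a limit were mostly close to it. The 196 whose 3 kb promoter was under 5 CPM had a median of 4.45 CPM, the 261 whose 1 kb promoter reached 1 CPM had a median of 1.27 CPM there, and the 174 whose gene reached 1 CPM had a median of 1.37 CPM. The highest SKI3 RNAi level was 5.15 CPM for a 1 kb promoter and 3.94 CPM for a gene. The same limits applied to the SKI3 RNAi libraries chose 2768 promoters, of which the 2041 shared ones were 73.7%.

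Mean levels were close in both groups. The ratio of the SKI3 RNAi to the GUS RNAi mean CPM was within 1.5-fold for 2358 distal promoters, or 90.0%, and within 2-fold for 2595, or 99.1%. It was above 2-fold higher for 9 and above 2-fold lower for 15, with extremes of 2.63 and 0.122. Because GUS RNAi levels chose the list, these counts do not compare the directions.

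**Figure D4:**
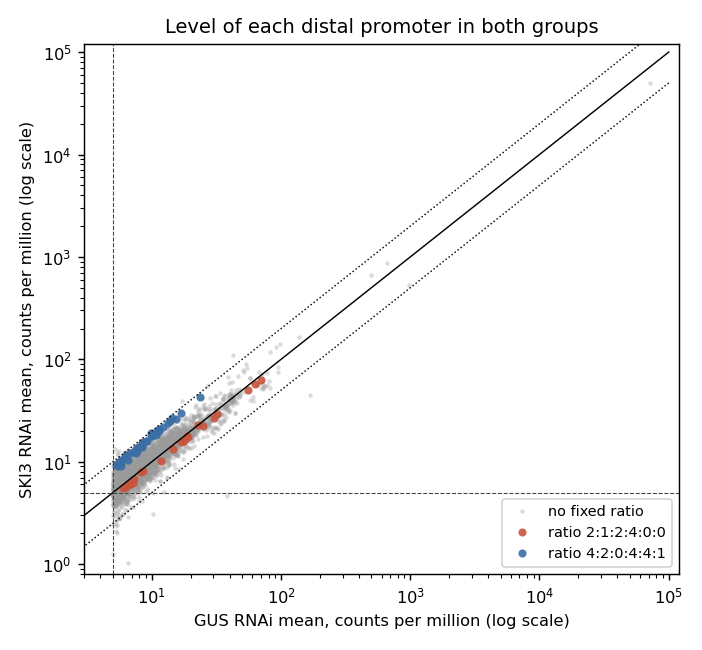
SKI3 RNAi against GUS RNAi mean CPM, both on log scales, 1 point per distal promoter, with the promoters of 2 fixed ratios between libraries in colour. The points follow the diagonal, and 99.1% lay within 2-fold of it. These are group means: the promoters of both ratios lay within 2-fold although some of their libraries were nearly empty.

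No distal promoter passed the test between the groups in the filtered fit of all 6 libraries. Of 2616 tested, 0 had an adjusted p under 0.05 in edgeR (Benjamini-Hochberg over 48283 features), where the background was 0.0% in each direction, and 0 passed in DESeq2. The smallest adjusted p of a distal promoter was 0.743 in edgeR and 0.292 in DESeq2. An unadjusted p under 0.05 was reached by 68 that were higher and 86 that were lower in SKI3 RNAi roots, together 5.89% against 6.58% of all features, with a background of 3.58% higher and 2.99% lower over these and 3.83% higher and 2.36% lower over all tested 3 kb promoters. DESeq2 gave 17 higher and 35 lower at that level, against 1.01% higher and 1.36% lower over all features. In edgeR the number at an unadjusted p under 0.05 was 154 with all libraries. It was 97 without SKI3 RNAi replicate 2, or 3.71% against 4.99% of all features. It was 99 without GUS RNAi replicate 3, or 3.78% against 4.84%, and 221 without SKI3 RNAi replicate 3, or 8.44% against 8.94%. With no filter on low counts, 9 passed an adjusted p of 0.05, 1 higher and 8 lower, against a background of 0.0839% higher and 0.0252% lower. Because GUS RNAi levels chose the list, this split does not compare the directions. The median log2 fold change was -0.01 for distal promoters and 0.02 for all tested features. Scaling by total counts in place of TMM factors moved these medians to 0.09 and 0.12, and then 102 were higher and 49 lower, so the direction of the split depended on the scaling.

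The choice of libraries also entered the split. The list chosen in the same way on the SKI3 RNAi libraries had 134 higher and 58 lower at an unadjusted p under 0.05, with a median log2 fold change of 0.10. The list chosen on all 6 libraries had 105 higher and 66 lower, with a median of 0.06. With no filter on low counts, 1 distal promoter was higher and 8 lower at an edgeR adjusted p under 0.05. In that fit, the list chosen on SKI3 RNAi had 31 higher and 3 lower, and the list chosen on all 6 libraries 19 and 5. Groups did not overlap for 171 distal promoters higher in SKI3 RNAi, or 6.54%, and 146 lower, or 5.58%, against 7.35% and 5.6% of all features and 8.09% and 4.77% of all tested 3 kb promoters.

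Some of the promoters with the smallest p among those higher in SKI3 RNAi roots matched a gene. MtrunA17Chr8g0340781 on chromosome 8 held 16.6, 15.7 and 18.6 CPM in GUS RNAi and 31.2, 42.2 and 44.8 CPM in SKI3 RNAi libraries, without overlap. Its log2 fold change was 1.11 (SE 0.223, edgeR adjusted p = 0.743), and the adjusted p was 0.0232 without SKI3 RNAi replicate 1. The neighbouring gene MtrunA17Chr8g0340791 held 66, 35 and 66, and 92, 99 and 117 counts where the promoter held 66, 34 and 65, and 89, 98 and 117. MtrunA17Chr7g0241121 on chromosome 7 held 24.9, 26.7 and 27.8 CPM in GUS RNAi and 67.3, 46.9 and 49.8 CPM in SKI3 RNAi libraries, with a log2 fold change of 0.95 (SE 0.205, edgeR adjusted p = 0.743), and matched the gene MtrunA17Chr7g0241131. In all, 53 distal promoters matched a gene, with a median log2 fold change of 0.06. Of these, 5 were higher and 3 lower at an unadjusted edgeR p under 0.05, or 15.1% together. Over all features the share was 6.58%, with 3.58% higher and 2.99% lower. The 5 include the 2 promoters just described, and none of the 53 passed the adjusted threshold in this fit. The share is therefore a description and no separate support.

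MtrunA17Chr2g0330221 on chromosome 2 had the highest ratio of the list and no neighbour with 50% of its counts. It held 46.3, 42.0 and 39.0 CPM in GUS RNAi and 157, 125 and 51.7 CPM in SKI3 RNAi libraries, and 2 of the SKI3 RNAi libraries carried most of the difference. Its log2 fold change was 1.28 (SE 0.320, edgeR adjusted p = 0.743), and it passed with no filter on low counts, at an adjusted p of 0.00106. MtrunA17Chr5g1023548 held 57.4, 56.3 and 46.2 CPM in GUS RNAi and 89.4, 91.6 and 88.1 CPM in SKI3 RNAi libraries. Its neighbours included genes with 77.6% and 100% and a 1 kb promoter with 106% of its counts. MtrunA17Chr8g0387941 held 47, 22 and 29 counts in GUS RNAi libraries and 60, 44 and 47 in SKI3 RNAi libraries. Its neighbours included a transposable element fragment with 98.8% and a gene with 83.1% of its counts. The log2 fold changes of MtrunA17Chr5g1023548 and MtrunA17Chr8g0387941 were 0.66 and 0.83, both with an edgeR adjusted p of 0.743.

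The 5 with the smallest p among the lower ones had GUS RNAi means of 5.04 to 13.1 CPM. MtrunA17Chr1g0182681 held 18, 13 and 16 counts in GUS RNAi libraries and 4, 2 and 4 in SKI3 RNAi libraries, a log2 fold change of -2.01 (SE 0.410). Counts of 2 to 4 are near the floor of 3 counts, so the size of this difference is poorly set. MtrunA17Chr5g0433301 held 64, 21 and 39 counts in GUS RNAi libraries and 18, 9 and 13 in SKI3 RNAi libraries, and a neighbouring retrotransposon fragment held 62, 21 and 36, and 17, 7 and 12. MtrunA17Chr2g0330171 and MtrunA17Chr6g0483361 had GUS RNAi means of 13.0 and 13.1 CPM and SKI3 RNAi means of 6.99 and 7.15 CPM. MtrunA17Chr1g0155821 held 28, 24 and 43 counts in GUS RNAi libraries and 14, 11 and 14 in SKI3 RNAi libraries. None of these 5 passed the edgeR test, each with an adjusted p of 0.743, and their groups did not overlap. With no filter on low counts, MtrunA17Chr5g0433301 and MtrunA17Chr1g0182681 passed, with edgeR adjusted p-values of 0.0148 and 0.0209. The choice of the list on GUS RNAi levels favours lower SKI3 RNAi levels. MtrunA17Chr1g0182681 was just past the 5 CPM limit in GUS RNAi, at 5.04 CPM, and had 1.26 CPM in SKI3 RNAi roots.

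The 3 untested promoters were of low count in most libraries. MtrunA17Chr7g0274871 held 101, 5 and 11 counts in GUS RNAi libraries and 7, 7 and 10 in SKI3 RNAi libraries. MtrunA17Chr5g1023220 held 65, 5 and 3 counts in GUS RNAi libraries and 3, 3 and 2 in SKI3 RNAi libraries. In both, only GUS RNAi replicate 1 was above 5 CPM. With no filter both passed, at edgeR adjusted p-values of 0.000187 and 7.57e-06. That library alone took their GUS RNAi means past 5 CPM, so these results cannot be told apart from it. MtrunA17Chr5g1023540 held 14, 18 and 14 counts in GUS RNAi libraries and 8, 4 and 9 in SKI3 RNAi libraries.

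Several groups of distal promoters on different chromosomes shared a fixed ratio between libraries. Written as GUS RNAi replicates 1 to 3 and then SKI3 RNAi replicates 1 to 3, 22 promoters on 7 chromosomes stood at 2:1:2:4:0:0, with each library's share of the promoter's counts within 0.03 of that ratio and at least 100 counts. MtrunA17Chr2g0309051 held 272, 136 and 270 counts in GUS RNAi libraries and 529, 8 and 2 in SKI3 RNAi libraries, and MtrunA17Chr5g0448341 held 245, 122 and 249, and 489, 0 and 1. Their totals ran from 105 to 1217 counts. The same ratio was found in 60 of 5278 nuclear 3 kb promoters with 100 counts and in 231 features of all kinds. The median chi-square of the nonzero libraries against the ratio was 0.0685 on 3 degrees of freedom, a value that the tolerance used to choose them helps to keep low.

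A second ratio, 4:2:0:4:4:1, was met by 39 distal promoters on 8 chromosomes, with totals of 120 to 548 counts. MtrunA17Chr5g0435321 held 144, 73 and 2 counts in GUS RNAi libraries and 146, 148 and 35 in SKI3 RNAi libraries. This ratio was found in 93 of the 5278 nuclear 3 kb promoters and in 350 features of all kinds, with a median chi-square of 0.157 on 4 degrees of freedom. Neither ratio follows the library totals or the groups. Whether the counts in these promoters are separate reads was not tested.

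**Figure D5:**
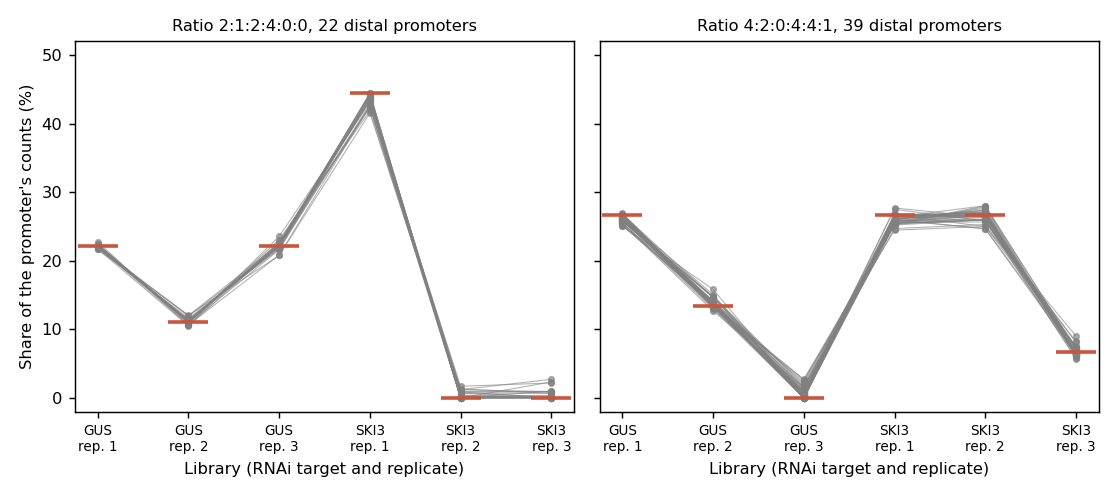
Share of a promoter's counts (%) in each library for the distal promoters of each fixed ratio, 1 line per promoter, with red bars at the ratio and no meaning to the order of replicates. The lines lie on each other: 22 promoters were near 0 in SKI3 RNAi replicates 2 and 3, and 39 were near 0 in GUS RNAi replicate 3.

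The fixed ratios bear on comparisons that leave out a library. In the fit of all 6 libraries, 0 of the 22 promoters at 2:1:2:4:0:0 had an unadjusted p under 0.05, and their median log2 fold change was -0.21. Without SKI3 RNAi replicate 1, the library where they were highest, 34 distal promoters passed an adjusted p of 0.05, 1 higher and 33 lower, against a background of 0.0138% higher and 0.959% lower, and 22 of the 33 were all of the promoters at that ratio. The 39 at 4:2:0:4:4:1 had a median log2 fold change of 0.75 with 0 at an unadjusted p under 0.05.

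Counts of 3 or fewer in a library came in few combinations. Among the 2268 distal promoters with at least 100 counts, 35 had 3 counts or fewer in GUS RNAi replicate 3 alone, 20 in SKI3 RNAi replicates 2 and 3, 3 in SKI3 RNAi replicate 2 alone and 2 in SKI3 RNAi replicate 3 alone. The exception was MtrunA17Chr2g0279891, with 3, 236 and 14 counts in GUS RNAi libraries and 5, 20 and 9 in SKI3 RNAi libraries. It had the lowest ratio of the list and passed with no filter on low counts, at an edgeR adjusted p of 8.82e-18. GUS RNAi replicate 2 alone took its GUS RNAi mean past 5 CPM, and the groups overlapped. Its ratio and p-value therefore cannot be told apart from that library. The other 3 kb promoters from 5 CPM showed the same 2 patterns, 32 and 27 of 2872 with at least 100 counts.

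The profile of MtrunA17Chr5g0447661 recurred too. Together with MtrunA17Chr2g0309321, MtrunA17Chr3g0133471, MtrunA17Chr4g0066041 and others it was shared by 16 distal promoters on 7 chromosomes, and by 51 nuclear 3 kb promoters. MtrunA17Chr5g0447661 itself held 26.9% of its counts in SKI3 RNAi replicate 3, 24.5% in GUS RNAi replicate 1 and 6.95% in GUS RNAi replicate 2, and each of the others was within 0.03 of its share in every library. Such sharing was common: of the 839 distal promoters with at least 200 counts, 655 fell in 43 groups of 5 or more formed in this way, which are described here without a test. A promoter of steady CPM has shares near the library totals, so many match at this tolerance. In the largest group, of 50, the lead departed from those totals by at most 3.48 percentage points. The departure was 11.9 points for MtrunA17Chr5g0447661 and 27.1 for MtrunA17Chr2g0309051, at the first fixed ratio.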

How the data were processed

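Small RNA was sequenced from roots, in 3 GUS RNAi and 3 SKI3 RNAi libraries, grouped by their titles. RNA was taken up in Trizol and libraries came from 500 ng with a NEBNext kit for small RNAs, per the labels' protocols. The deposited files hold the authors' counts for each annotated feature, as whole numbers without normalization. Cutadapt 2.10, Bowtie 1.3.1 and DESeq2 1.34.0 are named in the submitters' processing notes, with no role given. The genome build, the counting of reads that align in several places and the use of strand are not given in the sources used here. Molecular identifiers are not mentioned, so floors of 3 counts cover counting error only. A header line inside 1 table was dropped.

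CPM were computed from the deposited counts and each table's total. Counts were tested in edgeR 4.0.16 (R 4.3.3) with TMM factors, filterByExpr at a minimum count of 10, the quasi-likelihood test with group as the only term, and Benjamini-Hochberg adjustment over 48283 features at 0.05. The standard error is the log2 fold change over the root of F. DESeq2 1.42.0, other scalings and filters, a replicate block and leaving out each library served as alternatives, and the scripts were tested on simulated counts. The members and lists were chosen with earlier results of these data known.

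By the naming rule, the text gives the 10 promoters with the highest GUS RNAi mean, the 5 with the smallest p in each direction, those nearest the threshold and the most counted of groups with identical counts. Those named for a fixed ratio, a near-empty library, a shared profile, identity across chromosomes or lack of a test were chosen after their values were seen. None of the gene IDs of distal promoters was found in the RefSeq gene table used here.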

Additional observations from a re-analysis of the deposited data

How the results depend on the processing

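The number of distal promoters followed the thresholds: 4363 at 3 CPM, 996 at 10 CPM, 1698 with an upper limit of 0.5 CPM, and 1485 when every GUS RNAi library had to meet the limits. It was 2545 to 2724 when a GUS RNAi library was left out. Promoters past an edgeR adjusted p of 0.05 were 9 without a filter, against a background of 0.0839% higher and 0.0252% lower. They were 0 to 34 when a library was left out. The 34 came without SKI3 RNAi replicate 1, against a background of 0.0138% higher and 0.959% lower. At an unadjusted p under 0.05 there were 52 in DESeq2, or 1.99%, against 2.38% of all features. In edgeR there were 97 to 221 when a library was left out. The 97, without SKI3 RNAi replicate 2, were 3.71% against 4.99% of all features. The 221, without SKI3 RNAi replicate 3, were 8.44% against 8.94%. Same-numbered libraries had correlations of deviations of 0.0702, 0.188 and 0.248 over all tested features and 0.0711, 0.306 and 0.322 over distal promoters, and with replicate 1 under 0.1 no pairing was assumed. The replicate block gave 0 adjusted and 194 unadjusted calls, or 7.42%, and a median log2 fold change of -0.01. Over all features the unadjusted share was 7.98% in that fit. The difference in summed CPM, SKI3 RNAi minus GUS RNAi, was 1789 without the 10 most counted promoters, 1007 with the most counted left out of the totals (an alternative chosen after seeing the data), and -30304 to -10766 when a library was left out.

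Of 378 values for 27 named promoters, 12 turned direction, and 19 promoters kept theirs throughout. The log2 fold changes when each library in turn was left out ran from -4.31 to 0.47 for MtrunA17Chr3g0136651 (the highest without GUS RNAi replicate 1), -0.040 to 0.35 for MtrunA17Chr5g0438931 (lowest without SKI3 RNAi replicate 1), -0.12 to 0.75 for MtrunA17Chr5g0447661 and -0.12 to 0.79 for MtrunA17Chr2g0309321 (both lowest without SKI3 RNAi replicate 3). They ran from -0.028 to 0.19 for MtrunA17Chr5g0413101, -0.17 to 0.35 for MtrunA17Chr7g0255861, -0.44 to 0.69 for MtrunA17Chr5g0435931 and -0.45 to 0.11 for MtrunA17Chr3g0092001. MtrunA17Chr5g0435931 was also at 0.010 with total counts and 0.063 with the replicate block. The cause was not tested. Most distal promoters lay between 5 and 10 CPM, where few counts per library limit the precision.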
